A study of Mus musculus with 24 samples.

Results

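The genes described here are 42 genes of mitosis, followed in the retina of C57Bl/6 mouse pups in room air and in hyperoxia. They were taken as a list of gene symbols chosen with earlier results of these data known. Their shares beside those of all probe sets are therefore descriptive and give no independent support. Every probe set whose platform annotation gave 1 symbol from that list was taken. Of the 42 genes, 40 had such a probe set, and Ccnb1 and Cdca8 had none. Together they had 73 of the 22690 probe sets of the array. A probe set was tested when its mean over all arrays was above the 30th percentile of the table, which left 47 probe sets of 31 genes. The other 26 probe sets were dim, and 9 genes had only dim probe sets: Bub1, Cenpa, Cenpe, Kif20a, Melk, Mki67, Ndc80, Nek2 and Tpx2.

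The study measured total RNA of the retina on 24 one-sample arrays in 8 groups of 3. Pups in room air were taken at postnatal days 7, 8, 10 and 12. Pups of the same ages were taken after 12, 24, 72 and 120 hours of hyperoxia, so age and length of exposure change together and cannot be told apart. Within the labels, all groups share the strain, and no genetic change or agent other than oxygen is named. The oxygen concentration and the number of animals behind an array are not stated in them. Nothing says that the arrays of a group came from separate animals, so each p-value rests on array-to-array spread alone, which may be technical.

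Mitosis begins when the kinase Cdk1, bound to cyclin B or cyclin A, phosphorylates a broad set of proteins, and the chromosomes condense and attach through their kinetochores to the spindle. A checkpoint holds the cell until every kinetochore is attached. The anaphase-promoting complex, a ubiquitin ligase with its activator Cdc20, then marks cyclin B and securin for destruction, the sister chromatids part and the cell divides. In the mouse retina, progenitor cells still divide in the days after birth and then stop, from the centre outward, while growing vessels and glia of the nerve fibre layer also hold dividing cells. Most of these genes are transcribed mainly in late G2 and in mitosis. Retinal RNA cannot separate fewer dividing cells from less RNA of these genes in each cell.

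The arrays carried retinal RNA. The mean level of 10 measured rod photoreceptor genes was higher at day 12, going from medians of 13.11 in room air and 13.18 in hyperoxia at day 7 to 14.12 and 14.08 at day 12 (log2 intensity). Lens crystallin and related genes varied between single arrays of a group, with a mean level from 7.23 to 13.61 over the 24 arrays, and pigment epithelium genes varied from 8.76 to 11.03. Arrays of a group correlated with each other at 0.946 to 0.985. All levels below are log2 intensities after quantile normalization, floored at 7.09.

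In both conditions a core of mitosis genes fell from day 7 to day 12, and most of the list did not pass the test. In room air, 12 of the 47 probe sets passed the test (limma, Benjamini-Hochberg adjusted p under 0.05 over all 15838 probe sets tested). Of these, 11 were lower, each of a different gene, against 5.21% of all probe sets, and 1 was higher, against 7.15%. In hyperoxia, 16 were lower, of 16 genes, against 6.64% of all probe sets, and 1 was higher, against 5.95%. The median difference, day 12 minus day 7, was -0.34 over the 47 probe sets in room air and -0.33 in hyperoxia, against -0.03 over all probe sets in each. Negative differences were found in 38 of 47 probe sets in room air, against 54.3% of all probe sets, and in 40 of 47 in hyperoxia, against 53.5%. The 3 arrays of day 12 lay wholly below the 3 of day 7 in 18 of 47 probe sets in room air, against 14.3% of all probe sets, and in 19 of 47 in hyperoxia, against 14.8%. They lay wholly above in 3 of 47 in room air, against 14% of all probe sets, and in 1 of 47 in hyperoxia, against 11.7%. With the lens and pigment scores as covariates 11 probe sets were called in hyperoxia, and with only the arrays compared 10; with the filter at the 50th percentile, which left 13 of the 47 to test, 2 were called in room air and 3 in hyperoxia.

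The room air and hyperoxia courses share no array. The 10 genes Pbk, Ccnb2, Ube2c, Smc2, Nusap1, Cdca3, Cdk1, Prc1, Top2a and Cdc20 fell in both, which is 90.9% of the genes that fell in room air and 62.5% of those that fell in hyperoxia. The same overlap over all probe sets was not counted, so it is not shown to be particular to mitosis genes. For Cdc20 and Cdca3 the calls rest on a dimmer probe set, and their brightest one did not pass in either course. Ccna2 was called in room air, and Birc5, Cks2, Kif11, Tacc3, Ect2 and Smc4 were called in hyperoxia. That a gene passed in 1 course and not in the other does not show a difference between the courses. The difference itself was tested, and 0 of 47 probe sets passed, with 0% of all probe sets called and 1 of 47 at an unadjusted p under 0.05, against 6.21% of all probe sets (limma; lowest adjusted p = 0.742, for Birc5).

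**Figure D1:**
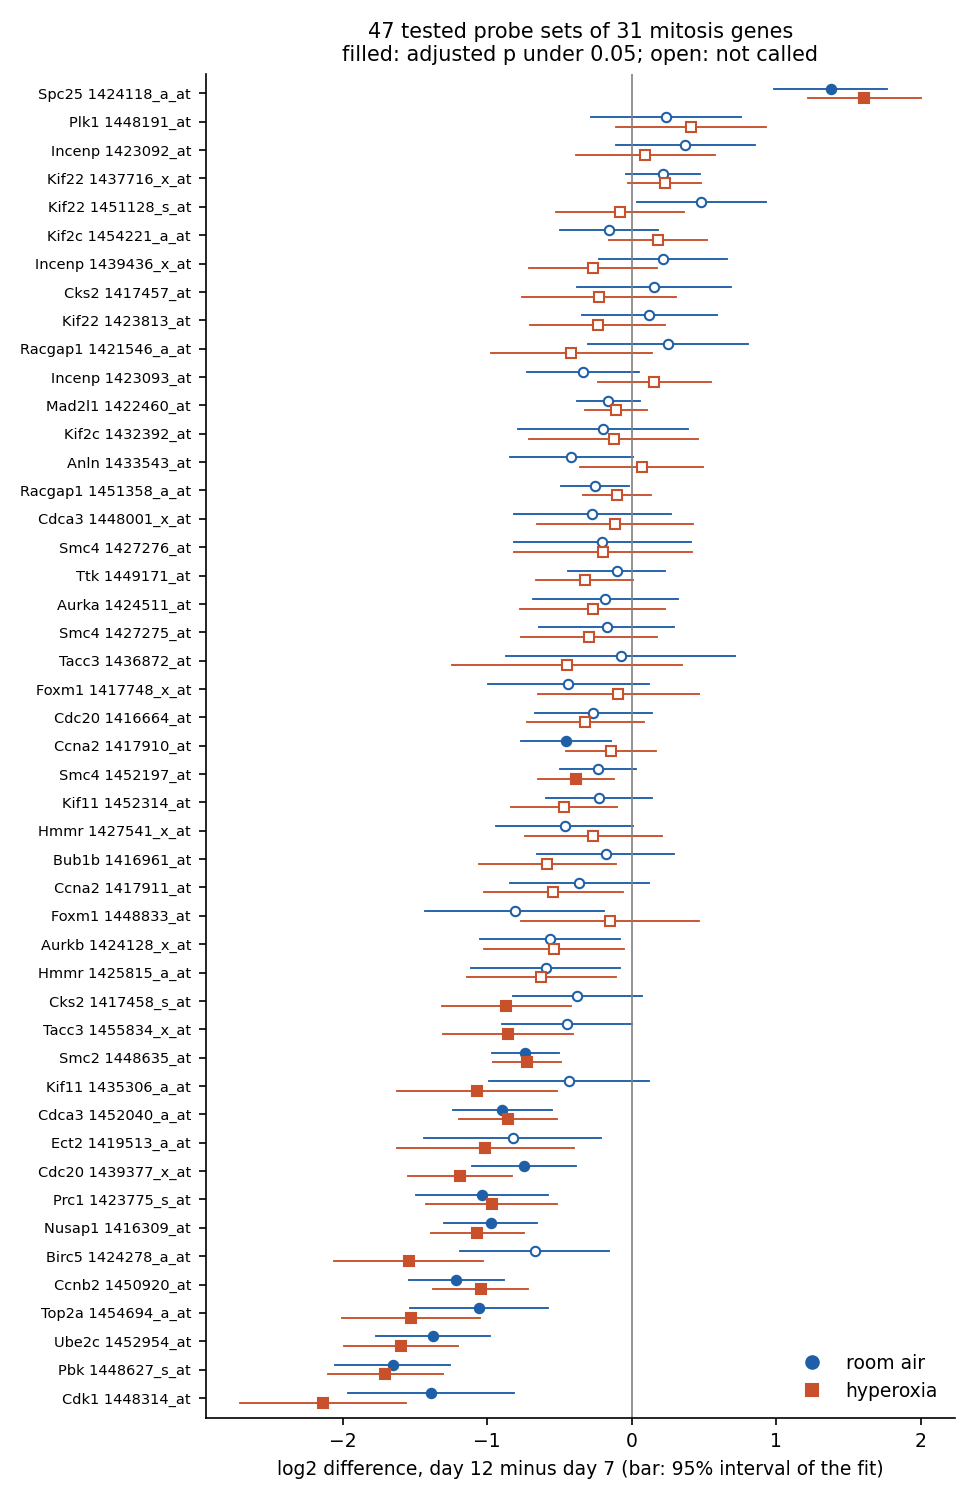
Log2 difference between day 12 and day 7 for the 47 tested probe sets of 31 mitosis genes, in room air (circles) and hyperoxia (squares); bars are 95% intervals of the fit from 3 arrays per group, and filled symbols passed at an adjusted p under 0.05. The called falls lie at the bottom, down to -2.14 for Cdk1 in hyperoxia, and Spc25 is the gene called higher, at 1.38 and 1.61.

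Many genes of mitosis carry promoter elements through which they are switched on late in the cycle: a cell cycle homology region, searched here as TTTGAA or TTCGAA, and CCAAT boxes bound by the factor NF-Y. The RefSeq promoters of the members were read on both strands, from 250 bases before to 50 bases after each start (GRCm38.p6). Windows were found for 34 of the 42 genes. A cell cycle homology match stood in 73.5% of the 34 genes and in 21.7% of all 27025 genes of the table, and CCAAT in 76.5% against 41.1%. Counting only the bases before the start, the cell cycle homology share was 38.2% of the 34 genes against 19.6% of all genes. Of the 17 genes that fell in at least 1 course, 14 had a window, and a cell cycle homology match stood in 10 of them; of the 14 tested genes that fell in neither course, 11 had a window and 10 held a match. Within the bases before the start alone the order turned, with matches in 9 of 14 against 3 of 11. These are matches of letters and no measure of binding. The 100 bases before the start are shown for 4 genes that fell in both courses, for Plk1, which was not called, and for Spc25, which rose. Capitals mark the matches to either motif, so that ATTGG and TTCAAA are the same motifs read from the other strand.
Cdk1, chr10:69352913-69353012, minus strand: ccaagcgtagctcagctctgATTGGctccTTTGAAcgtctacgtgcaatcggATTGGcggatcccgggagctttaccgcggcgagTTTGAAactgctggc
Ccnb2, chr9:70421555-70421654, minus strand: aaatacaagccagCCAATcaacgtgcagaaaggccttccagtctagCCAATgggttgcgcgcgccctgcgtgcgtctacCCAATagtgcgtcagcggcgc
Ube2c, chr2:164769829-164769928, plus strand: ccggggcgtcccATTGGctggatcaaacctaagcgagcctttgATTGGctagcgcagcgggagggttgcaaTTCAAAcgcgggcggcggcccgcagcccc
Top2a, chr11:99024190-99024289, minus strand: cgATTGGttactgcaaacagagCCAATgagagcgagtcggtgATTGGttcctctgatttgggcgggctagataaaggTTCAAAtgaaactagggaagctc
Plk1, chr7:122159335-122159434, plus strand: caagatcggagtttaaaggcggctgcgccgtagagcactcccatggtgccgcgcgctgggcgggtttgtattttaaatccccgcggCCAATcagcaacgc
Spc25, chr2:69206214-69206313, minus strand: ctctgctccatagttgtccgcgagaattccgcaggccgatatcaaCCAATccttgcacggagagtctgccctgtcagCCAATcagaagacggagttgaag
The printed stretches of Cdk1, Ube2c and Top2a hold both motifs, and those of Ccnb2, Plk1 and Spc25 hold CCAAT alone, with their cell cycle homology matches outside the bases shown.

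In the engine of mitosis, Cdk1 and a cyclin B fell in both courses. Cdk1, the kinase itself, read 9.68, 9.34 and 9.45 at day 7 in room air, 8.76, 9.81 and 8.93 at day 8, 8.97, 9.01 and 8.40 at day 10, and 8.22, 8.17 and 7.91 at day 12. In hyperoxia it read 9.59, 9.44 and 9.15 at day 7, 8.84, 9.19 and 9.05 at day 8, 7.16, 7.09 and 8.20 at day 10, and 7.09, 7.09 and 7.59 at day 12. Both day 12 groups lay wholly below their day 7 groups, and in hyperoxia 3 arrays had reached the floor by then. Cdk1 fell by 1.39 ± 0.27 (SE) in room air, which is 2.62-fold (adjusted p = 0.0019). In hyperoxia it fell by 2.14 ± 0.27, which is 4.40-fold and, with arrays at the floor, understated (adjusted p = 3.02e-05). The difference between these falls was -0.75, with a 95% interval from -1.56 to 0.06.

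Ccnb2, a cyclin B, read 8.57, 8.32 and 8.47 at day 7 in room air, 8.25, 8.26 and 8.32 at day 8, 8.29, 8.02 and 8.06 at day 10, and 7.09, 7.09 and 7.54 at day 12. In hyperoxia it read 8.83, 8.14 and 8.55 at day 7, 8.06, 8.18 and 8.24 at day 8, 7.09, 7.45 and 7.40 at day 10, and 7.44, 7.32 and 7.63 at day 12. Room air arrays stayed above 8 through day 10, while every hyperoxia array was below 7.5 by then. Over the whole interval Ccnb2 fell by 1.21 ± 0.16 in room air (2.32-fold, adjusted p = 3.38e-05) and by 1.04 ± 0.16 in hyperoxia (2.06-fold, adjusted p = 0.00016).

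The other genes of the engine moved less. Ccna2, cyclin A, has 2 tested probe sets, and 1 of them fell by 0.46 ± 0.15 in room air (adjusted p = 0.0495); the other was at -0.36 ± 0.23, and neither passed in hyperoxia. The call of Ccna2 held in 8 of 17 alternative analyses. It was lost without room air day 12 replicate 1, 2 or 3 or day 7 replicate 2 or 3, with differences from -0.53 to -0.34. Cks2, the small subunit that docks Cdk1 to its substrates, fell by 0.87 ± 0.21 in hyperoxia (adjusted p = 0.00956), and without hyperoxia day 12 replicate 3 it was at -0.68 (adjusted p = 0.0627). Its second probe set was at -0.23 ± 0.26. Foxm1, a transcription factor of the G2/M genes, did not pass in either course, at -0.81 ± 0.30 in room air (adjusted p = 0.0822) and -0.15 ± 0.30 in hyperoxia; without room air day 12 replicate 3 it was called, at -1.06 (adjusted p = 0.037). Of its 4 probe sets, 2 were at the floor on all 24 arrays.

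**Figure D2:**
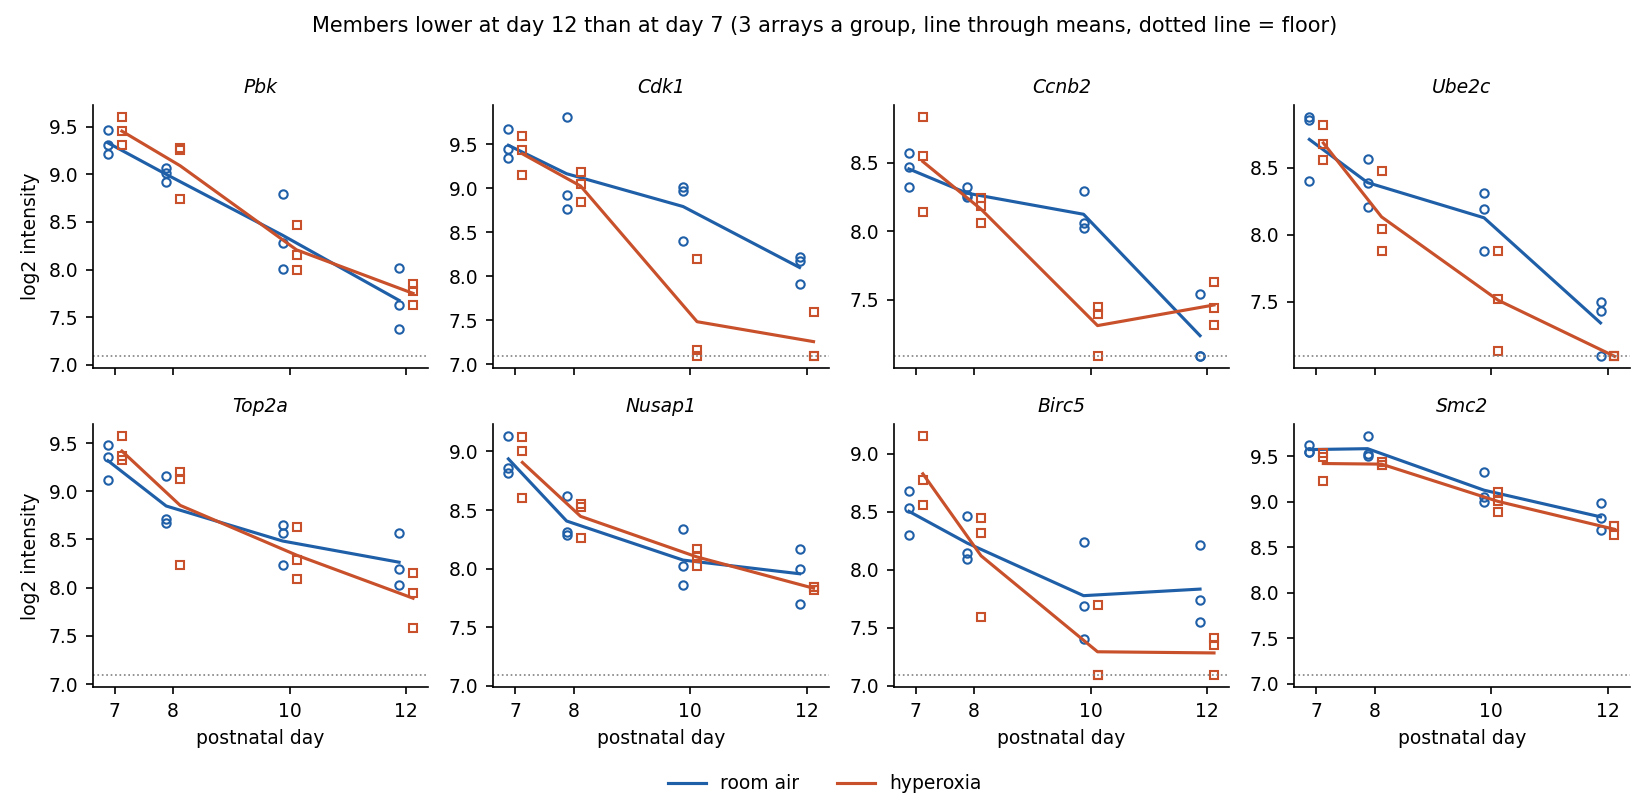
Log2 intensity of 8 mitosis genes on each of the 24 arrays by postnatal day, in room air (circles) and hyperoxia (squares), with lines through the group means, the floor of 7.09 dotted and a separate axis for each gene. All 8 were called lower at day 12 than at day 7 in hyperoxia, and all but Birc5 in room air; the hyperoxia arrays of Cdk1 and Ccnb2 lie below those in room air at day 10.

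In the group of other mitotic kinases, 1 of 3 tested genes fell in each course, against 5.5% of all genes in room air and 7.3% in hyperoxia. The kinases Bub1b, Ttk and Aurkb were counted in other groups below and were not called. Pbk, a kinase found in dividing cells, read 9.47, 9.21 and 9.31 at day 7 in room air and 7.63, 7.38 and 8.02 at day 12. In hyperoxia it read 9.60, 9.31 and 9.45 at day 7 and 7.85, 7.77 and 7.63 at day 12. The arrays of the end points were far apart in both courses, and those of days 8 and 10 lay between 8.00 and 9.28. Pbk fell by 1.65 ± 0.19 in room air (3.15-fold, adjusted p = 1.03e-05) and by 1.70 ± 0.19 in hyperoxia (3.26-fold, adjusted p = 7.94e-06). Plk1, which drives centrosome maturation and mitotic entry, was at 0.24 ± 0.25 and 0.41 ± 0.25. Aurka, the spindle pole kinase, was at -0.18 ± 0.24 and -0.27 ± 0.24, and neither gene passed. Melk was at the floor on all 24 arrays, and Nek2 was too dim to be tested.

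All 3 genes of the anaphase-promoting complex and ubiquitin group fell in both courses, by 1 probe set each. In each course 3 of 5 tested probe sets fell, against 5.21% of all probe sets in room air and 6.64% in hyperoxia. For Cdc20 and Cdca3 it was not the brightest probe set that fell. Ube2c, the ubiquitin-conjugating enzyme that starts chains for the complex, read 8.88, 8.40 and 8.86 at day 7 in room air and 7.43, 7.09 and 7.50 at day 12. In hyperoxia it went from 8.82, 8.68 and 8.56 to the floor on all 3 arrays. Its fall of 1.37 ± 0.19 in room air was 2.59-fold (adjusted p = 6.11e-05), and that in hyperoxia was at least 3.02-fold, since day 12 lay at the floor (adjusted p = 1.4e-05). Cdc20, the activator of the complex, fell by 0.75 ± 0.17 (adjusted p = 0.00626) and 1.19 ± 0.17 (adjusted p = 0.000109) on 1 probe set. Its brighter probe set was at -0.27 ± 0.19 and -0.32 ± 0.19 and did not pass, and another was at the floor on all arrays. In hyperoxia the Cdc20 call held in 14 of 15 alternatives. Cdca3, which promotes entry into mitosis through degradation of Wee1, fell by 0.89 ± 0.16 and 0.86 ± 0.16 on 1 probe set (adjusted p = 0.000911 and 0.00131), while its brighter probe set was at -0.27 ± 0.26 and -0.12 ± 0.26.

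The spindle checkpoint genes did not pass in either course. In limma, 0 of 3 tested genes were called, with 0 at an unadjusted p under 0.05 in room air and 1 in hyperoxia, Bub1b, against 25.8% and 25.6% of all probe sets. Bub1b, the BubR1 kinase that restrains Cdc20, was at -0.18 ± 0.23 in room air and -0.59 ± 0.23 in hyperoxia (adjusted p = 0.101). Ttk, the kinase that starts checkpoint signalling, was at -0.10 ± 0.16 and -0.33 ± 0.16. Mad2l1, which binds Cdc20, was at -0.16 ± 0.10 and -0.11 ± 0.10, with all 24 arrays between 9.80 and 10.21. The 95% intervals of Mad2l1 ran from -0.38 to 0.05 in room air and from -0.33 to 0.10 in hyperoxia, and did not reach the falls of Cdk1. Bub1 was at the floor on 19 and 20 of the 24 arrays by its probe sets.

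Of the chromosomal passenger complex, which corrects wrong attachments and prepares cytokinesis, Birc5 moved. Birc5, or survivin, read 8.53, 8.30 and 8.68 at day 7 in room air and 8.21, 7.74 and 7.55 at day 12. In hyperoxia it went from 9.15, 8.56 and 8.77 to 7.35, 7.09 and 7.41. The hyperoxia groups were far apart and the room air groups were close, though not overlapping. Birc5 fell by 1.54 ± 0.25 in hyperoxia (2.91-fold, adjusted p = 0.000296). In room air it was at -0.67 ± 0.25 (adjusted p = 0.0843); without room air day 12 replicate 1 it was called, at -0.86 (adjusted p = 0.0468). The difference between the courses was -0.87, with an interval from -1.60 to -0.14 before adjustment. Aurkb, the kinase of the complex, was at -0.57 ± 0.23 and -0.54 ± 0.23 (adjusted p = 0.122 and 0.143), and without hyperoxia day 12 replicate 2 it was called in hyperoxia at -0.77 (adjusted p = 0.0446). The 3 probe sets of Incenp, the scaffold, lay between -0.34 and 0.37.

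Spc25, a subunit of the Ndc80 complex that binds kinetochores to microtubules, went the other way. Its tested probe set read 10.75, 11.08 and 10.27 at day 7 in room air, 10.84, 11.04 and 10.47 at day 8, 11.76, 11.52 and 11.58 at day 10, and 11.98, 12.26 and 11.98 at day 12. In hyperoxia it read 10.38, 10.48 and 10.04 at day 7, 10.61, 10.47 and 10.15 at day 8, 11.07, 10.73 and 11.06 at day 10, and 11.83, 11.87 and 12.02 at day 12. The day 12 arrays lay wholly above those of every earlier age in hyperoxia and in room air. It rose by 1.38 ± 0.19 in room air (2.59-fold, adjusted p = 5.47e-05) and by 1.61 ± 0.19 in hyperoxia (3.05-fold, adjusted p = 1.17e-05), and both calls held in all 17 alternative analyses run for them. The other Spc25 probe set was too dim to be tested and lay between 7.09 and 8.17 on the 24 arrays, so the rise stands on 1 probe set. Of the other kinetochore genes, Cenpe was at the floor on all 24 arrays and Ndc80 on 10, and Cenpa, the centromeric histone, was untested; its room air arrays went from 8.46, 8.26 and 7.92 at day 7 to 7.28, 7.09 and 7.33 at day 12, and in hyperoxia from 8.30, 7.65 and 8.07 to the floor on all 3 arrays.

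**Figure D3:**
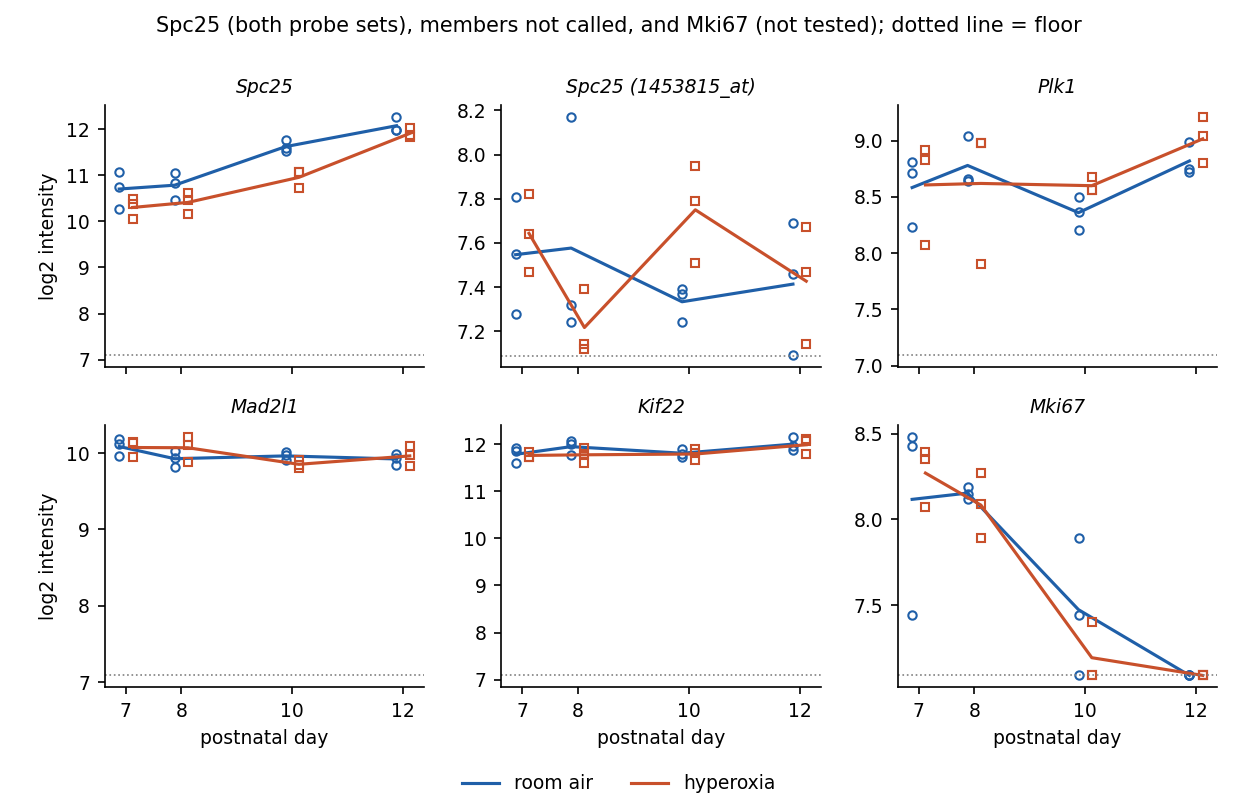
Log2 intensity by postnatal day for both probe sets of Spc25, for Plk1, Mad2l1 and Kif22, which were not called, and for Mki67, which was too dim to be tested; circles are room air, squares hyperoxia, lines join group means, and the axes differ between panels. The first Spc25 panel rises to about 12 at day 12 in both conditions, while the second stays between the floor of 7.09 and 8.17.

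Of the genes of spindle motors and microtubules, 1 of 12 tested probe sets fell in room air, against 5.21% of all probe sets. In hyperoxia 3 of the 12 fell, against 6.64%. Nusap1, which bundles spindle microtubules around chromosomes, read 8.86, 8.82 and 9.13 at day 7 and 8.17, 7.70 and 8.00 at day 12 in room air. In hyperoxia its arrays lay between 8.60 and 9.12 at day 7 and between 7.82 and 7.84 at day 12. It fell by 0.98 ± 0.15 (adjusted p = 0.000234) and 1.07 ± 0.15 (adjusted p = 0.000106), with no overlap in either course. The other Nusap1 probe set was too dim to be tested. Its mean was 7.65 at day 7 and 7.96 at day 12 in room air, and 7.64 and 7.38 in hyperoxia. Kif11, the motor that pushes spindle poles apart, fell by 1.07 ± 0.26 in hyperoxia on its brighter probe set (adjusted p = 0.0104) but lost the call without hyperoxia day 12 replicate 1, at -0.85 (adjusted p = 0.061). Tacc3, which crosslinks spindle fibres, fell by 0.85 ± 0.22 in hyperoxia on its brightest probe set (adjusted p = 0.0117). Without hyperoxia day 7 replicate 1, day 12 replicate 1 or day 12 replicate 2 that probe set was at -0.73 to -0.71 and did not pass. The second tested Tacc3 probe set was at -0.45 ± 0.38 in hyperoxia (adjusted p = 0.509), and an untested one was at the floor on 15 of the 24 arrays. Kif22, a motor on chromosome arms, had 3 probe sets between -0.24 and 0.48 over both courses, and Kif2c, which takes microtubule ends apart, had 2 tested ones between -0.20 and 0.18. Of the 2 untested Kif2c probe sets, 1 had means of 7.95 at day 7 and 7.38 at day 12 in room air, and 7.90 and 7.62 in hyperoxia. The other went from 7.60 and 7.44 to 7.09 in both. Tpx2, also untested, went on its brighter probe set from 8.10 to 7.24 in room air and from 7.89 to 7.27 in hyperoxia. Hmmr, a spindle assembly protein, was at -0.60 ± 0.25 and -0.63 ± 0.25 (adjusted p = 0.127 and 0.106), and without room air day 12 replicate 1 it was called in room air at -0.86 (adjusted p = 0.0309).

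Among genes of chromosome structure, Top2a and Smc2 fell in both courses. Top2a, the enzyme that untangles sister chromatids, read 9.12, 9.48 and 9.35 at day 7 and 8.57, 8.03 and 8.19 at day 12 in room air. In hyperoxia it went from 9.57, 9.32 and 9.36 to 7.94, 7.58 and 8.15. It fell by 1.06 ± 0.23 (2.08-fold, adjusted p = 0.00381) and by 1.53 ± 0.23 (2.88-fold, adjusted p = 0.000149), with no overlap between the ages. Smc2, a core subunit of condensin, fell by 0.74 ± 0.11 and 0.72 ± 0.11 (adjusted p = 0.000154 and 0.000188). Its partner Smc4 fell by 0.39 ± 0.13 in hyperoxia on 1 of 3 probe sets (adjusted p = 0.0494), a call that held in 9 of 17 alternatives. It was lost without hyperoxia day 7 replicate 1 or 3 or any 1 of the 3 arrays of day 12, with differences from -0.41 to -0.32. Mki67, the common marker of proliferating cells, was too dim to be tested: it read 8.48, 7.44 and 8.43 at day 7 in room air, 8.12, 8.15 and 8.19 at day 8, 7.44, 7.89 and 7.09 at day 10, and 7.09 on all 3 arrays of day 12, 2 of them at the floor. In hyperoxia it went from 8.35, 8.07 and 8.39 at day 7 to 7.89, 8.09 and 8.27 at day 8, 7.09, 7.40 and 7.09 at day 10, and the floor on all arrays of day 12.

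Of the genes of cytokinesis, Prc1 fell in both courses. Prc1, which bundles the microtubules of the central spindle, fell by 1.04 ± 0.22 in room air (adjusted p = 0.00303) and by 0.97 ± 0.22 in hyperoxia (adjusted p = 0.00522). Its arrays went from 9.43, 9.23 and 9.20 to 8.55, 7.81 and 8.38 in room air and from 9.62, 9.37 and 8.92 to 8.54, 8.33 and 8.12 in hyperoxia. The hyperoxia call of Prc1 held in 14 of 16 alternatives and was lost with the lens and pigment covariates or with only the arrays compared. Ect2, the exchange factor that activates RhoA at the furrow, fell by 1.01 ± 0.29 in hyperoxia (adjusted p = 0.026) and was at -0.82 ± 0.29 in room air (adjusted p = 0.0724). The hyperoxia call was lost without day 7 replicate 1 or day 12 replicate 1 or 2, with differences from -0.98 to -0.69, and without room air day 7 replicate 3 the room air difference passed, at -1.05 (adjusted p = 0.0491). Racgap1, which forms the centralspindlin complex, and Anln, the anillin of the furrow, lay between -0.42 and 0.25 and did not pass.

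Few single steps between neighbouring ages passed the test. Between days 7 and 8, 0 of 47 probe sets were called in room air or hyperoxia, as were 0% of all probe sets, with 2 and 6 of 47 at an unadjusted p under 0.05, against 4.98% and 4.03% of all probe sets (limma). Between days 8 and 10, 2 of 47 were called in room air, against 1.05% of all probe sets. Kif11 fell by 1.02 ± 0.18 on its dimmer probe set (adjusted p = 0.00576), and the brighter one did not pass. The fall did not last: from day 10 to day 12 the dimmer probe set was at 0.70 ± 0.18. Its day 12 arrays lay wholly above those of day 10, though the step did not pass. Spc25 rose by 0.84 ± 0.19 (adjusted p = 0.0317), a call lost without room air day 8 replicate 1 or 3 or any array of room air day 10, with adjusted p from 0.0834 to 0.196.

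In hyperoxia 2 of 47 were called between days 8 and 10, against 0.246% of all probe sets. Cdk1 fell by 1.54 ± 0.27 (adjusted p = 0.0229) and Ccnb2 by 0.85 ± 0.16 (adjusted p = 0.0261). The hyperoxia arrays of day 10 lay wholly below those of day 8 for both genes. Both calls were lost without hyperoxia day 8 replicate 2 or 3 or day 10 replicate 1 or 2, and that of Ccnb2 also without day 10 replicate 3; the differences then lay between -1.53 and -1.35 for Cdk1 and between -0.91 and -0.73 for Ccnb2. Without hyperoxia day 8 replicate 1, Pbk was called as well, at -1.06 (adjusted p = 0.0276).

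Between days 10 and 12, 0 of 47 were called in room air, against 0.0253% of all probe sets, with 9 of 47 at an unadjusted p under 0.05, against 6.67% of all probe sets. The lowest p was that of Ccnb2, at -0.89 ± 0.16 (adjusted p = 0.0564). In hyperoxia 1 was called over the same step, against 0.417% of all probe sets: Spc25 rose by 0.95 ± 0.19 (adjusted p = 0.0303). That call was lost on leaving out any 1 of the 6 arrays of hyperoxia days 10 and 12, with differences from 0.84 to 1.01.

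**Figure D4:**
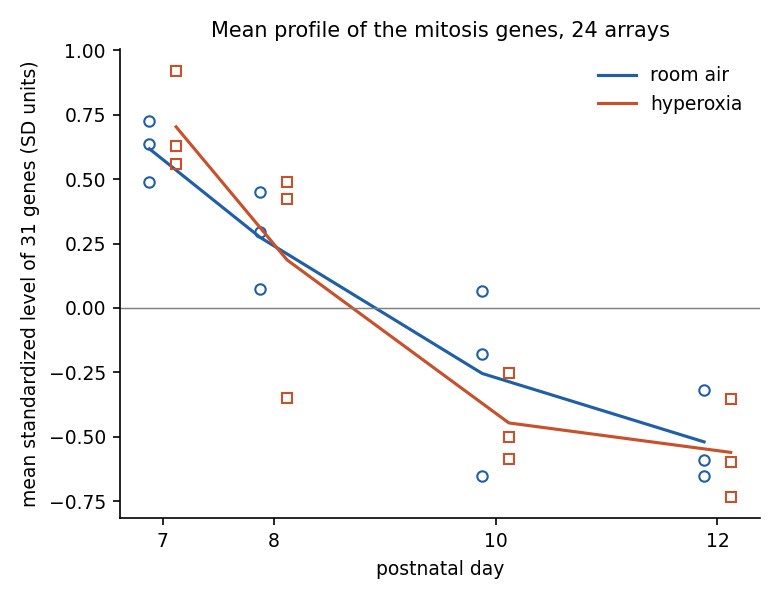
Mean standardized level of the 31 tested mitosis genes (each gene's brightest probe set scaled to mean 0 and SD 1 over the 24 arrays) on each array by postnatal day, in room air (circles) and hyperoxia (squares), with lines through group means. The group medians go from 0.64 at day 7 to -0.59 at day 12 in room air and from 0.63 to -0.60 in hyperoxia.

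The genes did not follow one course equally. Across the 24 arrays, which share the 8 groups, the correlation of a gene with the mean standardized profile of the other 30 tested genes was 0.92 for Pbk and for Top2a, 0.88 for Birc5 and for Nusap1, 0.86 for Prc1 and for Ube2c, 0.80 for Ccnb2 and 0.77 for Cdk1. It was under 0.2 for Incenp, Anln and Kif2c, -0.10 for Plk1, -0.22 for Kif22 and -0.78 for Spc25. The mean profile had a median of 0.29 at day 8 and -0.18 at day 10 in room air, and of 0.42 and -0.50 in hyperoxia. Its arrays at day 10 ran from -0.65 to 0.07 in room air and from -0.59 to -0.25 in hyperoxia, so the conditions overlapped. At day 8 the arrays ran from 0.07 to 0.45 in room air and from -0.35 to 0.49 in hyperoxia. Hyperoxia day 8 replicate 1, at -0.35, lay within the hyperoxia range of day 10.

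Hyperoxia against room air gave 0 called mitosis genes at any age. In limma, 0 of 47 probe sets were called at day 7 (0.0631% of all probe sets), day 8 (0.0821%), day 10 (0.0631%) and day 12 (0.0126%), and 0 of 47 for the mean of the 4 days (0.492%). At an unadjusted p under 0.05 there were 2, 2, 9 and 5 of 47 at the 4 days and 8 of 47 for the mean, against 3.18%, 4.92%, 10.9%, 8.73% and 8.94% of all probe sets. The median difference over the 47 probe sets, hyperoxia minus room air, was 0.03, -0.01, -0.05 and -0.06 at the 4 days. Over all probe sets it was 0.010, 0.004, -0.004 and -0.003. An F test across the days for a changing response to oxygen called 0 of 47 (0% of all probe sets), with 4 of 47 at an unadjusted p under 0.05, against 6.56% of all probe sets, and the lowest adjusted p, 0.489, for Ccnb2.

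At day 10, after 72 hours, Cdk1 was at -1.31 ± 0.27 (2.48-fold lower, adjusted p = 0.086), with all 3 hyperoxia arrays below all 3 room air arrays. Without hyperoxia day 10 replicate 3, whose Cdk1 level was 8.20, the difference was -1.67 and passed (adjusted p = 0.0265). Ccnb2 was at -0.81 ± 0.16 (1.76-fold lower, adjusted p = 0.0572), with no overlap, and it passed in 4 of the alternative analyses, as given in the closing section.

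The other members at an unadjusted p under 0.05 at day 10 pointed in both directions. Tacc3 was at -0.71 ± 0.22, Spc25 at -0.67 ± 0.19, Ube2c at -0.62 ± 0.19 and Bub1b at -0.52 ± 0.23. On the positive side Kif11 was at 0.61 ± 0.18 and Kif2c at 0.64 ± 0.28, each on its dimmer probe set, and Hmmr was at 0.63 ± 0.25. That Kif11 probe set was low in room air at day 10 alone, with means of 8.37 at day 8, 7.34 at day 10 and 8.04 at day 12. Hyperoxia arrays lay wholly below in 8 of 47 probe sets, against 11.9% of all probe sets, and wholly above in 5, against 9.64%. Pbk, Top2a and Nusap1, which fell with age, were at -0.15 ± 0.19, -0.15 ± 0.23 and 0.03 ± 0.15, and did not pass.

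At day 12, after 120 hours, Cdk1 was at -0.84 ± 0.27, Cdc20 at -0.54 ± 0.17 on its dimmer tested probe set and Birc5 at -0.55 ± 0.25, with no overlap between the groups and adjusted p of 0.426, 0.418 and 0.543. Kif2c was at 0.53 ± 0.16 on its brighter probe set (adjusted p = 0.382), and Foxm1 was at 0.74 ± 0.27 on its dimmer tested probe set (adjusted p = 0.449), with overlap between the groups. For the mean of the 4 days the lowest adjusted p were those of Cdk1, at -0.60 ± 0.14 (adjusted p = 0.0612), and Spc25, at -0.40 ± 0.09 (adjusted p = 0.064). Ttk was at 0.29 ± 0.08 (adjusted p = 0.164). Leaving out 1 array brought Cdk1 under the threshold in 4 cases (room air day 8 replicate 1, room air day 10 replicate 3, hyperoxia day 10 replicate 3 or hyperoxia day 12 replicate 3; differences from -0.69 to -0.64), Spc25 without room air day 7 or day 8 replicate 3 (-0.46 and -0.44), and Cdc20 without hyperoxia day 7 replicate 1 (-0.32).

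**Figure D5:**
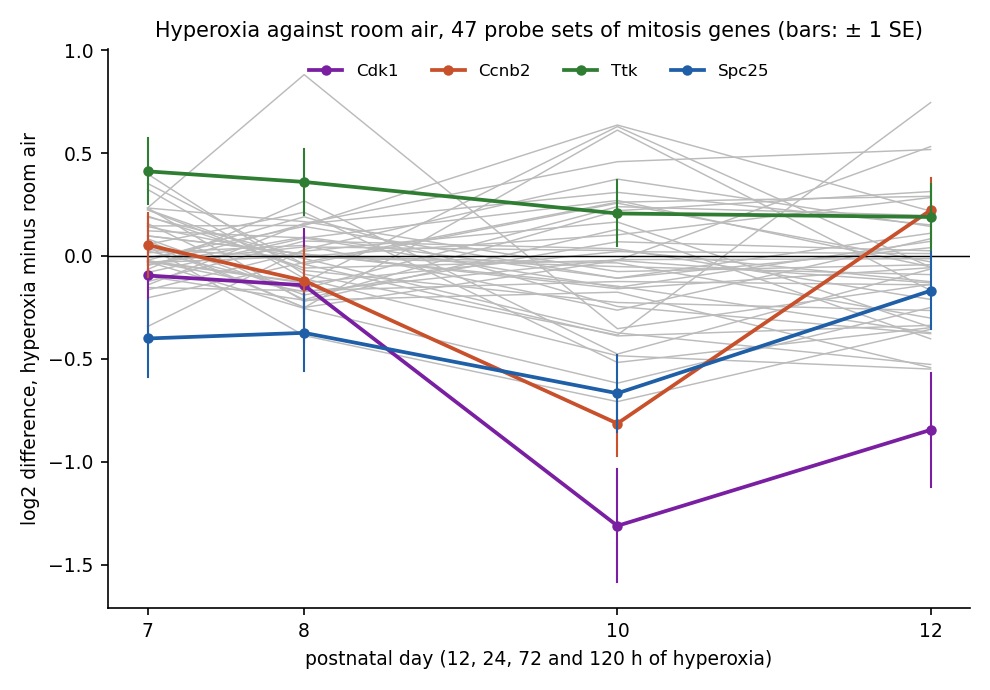
Log2 difference, hyperoxia minus room air, at each postnatal day for the 47 tested probe sets of mitosis genes (grey lines), with Cdk1, Ccnb2, Spc25 and Ttk in colour and bars of 1 SE. Cdk1 stands at -1.31 and Ccnb2 at -0.81 at day 10, and 0 of the 47 were called at any day.

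Other genes of the cell cycle were counted by their brightest probe sets, in lists chosen with earlier results of these data known. Over all 9266 genes, 5.5% were called lower and 8.57% higher in room air, day 12 minus day 7, and 7.3% and 6.84% in hyperoxia. Of 34 tested genes of the G1/S transition and DNA replication, 12 fell in room air and 15 in hyperoxia, and 0 rose. Cdk4, the kinase of G1, fell by 1.35 ± 0.12 in room air (adjusted p = 4.12e-07) and fell by 1.49 ± 0.12 in hyperoxia (adjusted p = 2.51e-07). Ccnd1, its cyclin D1, fell by 1.24 ± 0.15 and 1.17 ± 0.15, and Mcm7 and Mcm5, subunits of the replicative helicase, fell by 1.10 ± 0.14 and 0.99 ± 0.16 in room air and by 1.43 ± 0.14 and 1.30 ± 0.16 in hyperoxia. At day 10, 1 of the 34 was lower in hyperoxia than in room air, Mcm5, at -1.02 ± 0.16 (adjusted p = 0.0329), against 0.0971% of all genes.

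The other lists of mitosis held 1 to 3 called genes each in either course. Over all genes, 5.5% were called lower and 8.57% higher in room air, and 7.3% and 6.84% in hyperoxia. A list of 12 or 17 genes with 1 call in a direction lies near these shares. Of 12 tested genes of condensin and cohesin, 2 fell in both courses: Ncaph, by 0.79 ± 0.16 and 0.69 ± 0.16, and Ncapd2, by 0.80 ± 0.18 and 0.56 ± 0.18, both of condensin I. Of 17 other kinetochore and checkpoint genes, 1 fell and 1 rose in room air: Trip13, a remodeller of checkpoint complexes, fell by 0.89 ± 0.25, and Zwint, a kinetochore protein, rose by 0.47 ± 0.14. In hyperoxia 1 of these 17 fell and 0 rose. Of 8 other spindle and cytokinesis genes, Kif4, a chromosome motor, fell by 0.70 ± 0.18 and Kpna2, an importin that binds spindle factors, rose by 0.40 ± 0.10 in room air. In hyperoxia 1 of these 8 fell and 1 rose. Of 12 subunits and partners of the anaphase-promoting complex, Anapc5 fell, by 0.31 ± 0.10 in room air and 0.43 ± 0.10 in hyperoxia. Of 9 other G2/M regulators, with medians of -0.42 in room air and -0.54 in hyperoxia, 1 fell in room air and 3 in hyperoxia, with Cks1b, the paralog of Cks2, at -0.80 ± 0.14 and -0.85 ± 0.14.

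Markers of cell types moved beside these genes. Of 12 tested genes of retinal progenitors, 7 were lower at day 12 in both courses, with medians of -0.68 in room air and -0.75 in hyperoxia. The mean level of the 14 measured progenitor genes ran from 10.30 to 10.47 at day 7 and from 9.58 to 9.72 at day 12 in room air, and from 10.27 to 10.57 and from 9.49 to 9.81 in hyperoxia. At day 10 it was 9.83 to 9.94 in room air and 9.94 to 10.06 in hyperoxia, 0 of the 12 were called (limma; 0 at an unadjusted p under 0.05), and their median difference was 0.04. Endothelial genes differed by condition: at day 10 all 16 tested had negative differences, hyperoxia minus room air, with a median of -0.58, 11 at an unadjusted p under 0.05, against 10.9% of all probe sets, and 0 called (limma). For the mean of the days 7 of 16 were lower, against 0.529% of all genes. Of the 21 endothelial genes 2 were at the floor on all arrays, and the mean level of the 21 at day 10 was 9.07 to 9.63 in room air and 8.75 to 8.84 in hyperoxia. Pericyte genes also differed: at day 10, 7 of 8 tested had negative differences, with a median of -0.42, 4 at an unadjusted p under 0.05 and 0 called (limma). For the mean of the days 1 of the 8 pericyte genes was lower, against 0.529% of all genes. The part of any of these cell types in the values of the mitosis genes was not tested.

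The genes outside the list whose levels over the 24 arrays were most like the mean profile of the mitosis genes, among 9235 genes compared by Pearson correlation, were D17H6S56E-5 (0.94), Msra (0.92), H2az1 (0.92), Csrp2 (0.92), Yif1a (0.92), Limd2 (0.91), Tmem176a (0.91), Ccnd1 (0.91), Clic4 (0.91) and Cdca4 (0.91). H2az1 encodes the histone variant H2A.Z. Its group means went from 13.53 at day 7 to 12.99 at day 12 in room air and from 13.65 to 13.03 in hyperoxia, and it fell by 0.54 ± 0.12 (adjusted p = 0.00549) and 0.63 ± 0.12 (adjusted p = 0.00172). Clic4, an intracellular chloride channel protein, fell by 0.92 ± 0.10 in both courses. The arrays share their ages, so many genes that fall with age correlate in this way.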

How the data were processed

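The authors deposited 1 linear intensity per probe set and array; the array means, after trimming 2% at each end, lay between 1500.35 and 1500.4, so they had been scaled, and the software is not given in the sources used here. Array medians, 570.2 to 679.7, spanned 0.25 on the log2 scale, so log2 intensities were quantile normalized, floored at the 20th percentile (signal 136.2), and the 64 control probe sets left out. Means under the 30th percentile (signal 239.6) were removed, leaving 15838 probe sets. The number of arrays limits the precision.

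All comparisons are contrasts in 1 limma fit (3.58.1, R 4.3.3) over 24 arrays (16 residual degrees of freedom), called at Benjamini-Hochberg adjusted p under 0.05; errors are standard errors and folds come from the log2 differences. The procedure was checked on simulated data. Symbols come from the platform annotation; a Foxm1 probe set that shares symbols with other genes was left out. The members and the gene lists were chosen with earlier results of these data known. Every member could be named, represented by its brightest probe set; from other lists up to 4 genes with the lowest p in the room air course and up to 2 in the mean hyperoxia comparison could be named, and the 10 genes most correlated with the mean profile. H2az1 and Clic4 among the 10 were picked after their values were seen.

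Alternatives were the deposited scaling, other floors and filters, an intensity-dependent prior, the replicate number as a block, lens and pigment scores as covariates, 1 probe set per gene, only the arrays compared, each array left out and, added after seeing the data, without the 2 arrays least like their groups. Promoters are RefSeq's (GRCm38.p6). Figures used matplotlib 3.10.9 in Python 3.11.15.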

Additional observations from a re-analysis of the deposited data

How the results depend on the processing

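The calls of Pbk, Ccnb2, Cdk1, Nusap1, Smc2, Top2a, Ube2c and Spc25 between days 7 and 12 held in both courses in all 15 to 17 alternatives run for each. Called mitosis probe sets in room air, 12 of 47, were 10 to 15 in the other alternatives and 2 when the filter was raised to the 50th percentile, which left 13 of them to test; leaving out 1 array gave 11 to 13. In hyperoxia, 17 of 47, they were 3 with that filter, 11 with lens and pigment scores as covariates and 10 with only the arrays compared (9 shared), and 13 to 17 leaving out 1 array. For days 8 to 10 in room air, 2 called, there were 6 on the deposited scaling, 1 with the 50th percentile filter, 1 with the covariates, 1 without the 2 arrays least like their groups (room air day 8 replicate 1 and hyperoxia day 12 replicate 2) and 0 with only the arrays compared (1 to 2 leaving out 1 array). In hyperoxia, 2 called, there were 0 with the floor at the 5th percentile, the stricter filter, the covariates or only the arrays compared and 1 with the intensity-dependent prior (0 to 3 leaving out 1 array). For days 10 to 12, 0 called in room air became 1 with no filter or 1 probe set per gene, and 1 in hyperoxia became 2 with the floor at the 30th percentile or 1 probe set per gene, and 0 without the 2 arrays, with only the arrays compared or leaving out any 1 array. For hyperoxia against room air, 0 called became 1 at day 10 (Ccnb2) with no filter, the covariates or 1 probe set per gene, and 1 for the mean of the days with the stricter filter, the intensity-dependent prior (both Spc25) or 1 probe set per gene (Cdk1); leaving out 1 array gave 0 to 1 in each. Unless named here as fewer probe sets or arrays, the cause was not tested. Replicate numbers mark no known pairing: 34 of 84 same-numbered pairs correlated above 0.1, and 18 of 24 arrays correlated best with their own number, a hint from the data. With the replicate number as a block, 13 and 17 were called over days 7 to 12, 3 and 2 over days 8 to 10, 1 and 1 over days 10 to 12, 1 at day 10 (Ccnb2) and 1 for the mean (Spc25), and it changed no other count. Differences near the floor are understated.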

Other observations

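Genes that hold back the cell cycle did not move together with age. Of 17 tested, 3 fell and 1 rose between days 7 and 12 in room air, against 5.5% and 8.57% of all genes, and 2 fell and 2 rose in hyperoxia, against 7.3% and 6.84%. Btg2, an antiproliferative gene of neural precursors, fell by 1.00 ± 0.16 in room air (limma, adjusted p = 0.00034) and by 0.83 ± 0.16 in hyperoxia (adjusted p = 0.00176). Cdkn1b, the inhibitor p27, fell by 0.84 ± 0.21 in room air (adjusted p = 0.012) and was at -0.18 ± 0.21 in hyperoxia. Gadd45a, a stress-induced growth arrest gene, rose by 0.82 ± 0.18 and 0.58 ± 0.18 (adjusted p = 0.0042 and 0.0376).

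Müller glia and rod markers were mostly higher at the end of both courses. Of 10 tested Müller glia genes, 6 were higher at day 12 in each course, and of 10 rod genes, 7 were higher in room air and 6 in hyperoxia. Over all genes, 8.57% were called higher in room air and 6.84% in hyperoxia. Of 5 tested astrocyte genes, 1 was higher in room air and 2 in hyperoxia. Of 9 tested microglia and macrophage genes, 0 passed in either course (limma), with 2 in room air and 3 in hyperoxia at an unadjusted p under 0.05, against 25.8% and 25.6% of all probe sets.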
